A study of Mus musculus with 8 samples.

Results

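Genes of major histocompatibility complex (MHC) class II antigen presentation were followed through dorsal root ganglia after nerve injury and after loss of neuronal myosin II. They were taken by symbol from the 21878 genes of the deposited table, and all 8 chosen were found: the class II chains H2-Aa, H2-Ab1 and H2-Eb1, the invariant chain Cd74, the peptide-loading chains H2-DMa, H2-DMb1 and H2-DMb2, and the transactivator Ciita. The ganglia were lumbar ones (L4 and L5) of C57BL/6 mice, taken 3 days after sham surgery or after cutting the sciatic nerve, which carries axons of their sensory neurons (sample names call the cut SNI). Every mouse, controls included, had double-floxed Myh9/10, genes for heavy chains of non-muscle myosin II. WT mice had these alleles alone, and dKO mice also had Advillin-Cre, which is driven by a gene of sensory neurons. The 4 groups were therefore floxed mice with sham surgery (WT sham), floxed mice with axotomy (WT SNI), Cre-carrying mice with sham surgery (dKO sham) and Cre-carrying mice with axotomy (dKO SNI), with 2 libraries each. No label gives age or says how many mice stand behind a library. The p-values rest on how far libraries of the same group differ, pooled over the 4 groups and adjusted towards other genes. That spread may be technical.

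Class II molecules carry peptides from swallowed proteins to the surface of antigen-presenting cells, where CD4+ T cells read them. An alpha and a beta chain pair in the endoplasmic reticulum with the invariant chain, which blocks the peptide groove and steers the complex to endosomes. There cathepsins trim the invariant chain to a short remnant, and the H2-DM heterodimer swaps that remnant for a peptide. Ciita does not bind DNA itself but docks on a platform of RFX, CREB and NF-Y proteins on the X and Y boxes of class II promoters, and interferon gamma is its best known inducer. In a peripheral ganglion the cells known for class II are mainly resident and recruited macrophages, dendritic cells and B cells. The Cre of this design acts in neurons.

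Of the members, 6 lie in the class II region of chromosome 17 (GRCm38, GENCODE M21, all protein-coding). In map order these are H2-DMa (34119541 to 34139101, plus strand), H2-DMb2 (34143307 to 34151555, plus), H2-DMb1 (34153072 to 34160230, plus), H2-Ab1 (34257689 to 34269419, plus), H2-Aa (34282744 to 34287823, minus) and H2-Eb1 (34305867 to 34316674, plus). Ciita lies on chromosome 16 (10480059 to 10528418, plus). Of the 8 members, 5 (H2-Aa, H2-Eb1, H2-DMa, H2-DMb1 and H2-DMb2) matched the RefSeq promoter table of build GRCm38.p6, which holds 250 bases before and 50 bases after each annotated start.

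The promoter stretches below are shown because class II promoters are known to carry elements through which Ciita acts. Any link between these stretches and the members' levels was not tested. Capitals mark GNAAC, the core used here for the X box, and TGATTGG, the core used for the Y box.
H2-Aa: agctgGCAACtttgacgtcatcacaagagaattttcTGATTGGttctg
H2-Eb1: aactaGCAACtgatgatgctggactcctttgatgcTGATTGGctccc
H2-DMb1: acctaGTAACtgatgatgctaggctgattc
H2-DMb2: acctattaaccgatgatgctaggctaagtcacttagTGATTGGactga

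The stretches are at chr17:34287862-34287909 (H2-Aa, minus strand), chr17:34305771-34305817 (H2-Eb1, plus strand), chr17:34153092-34153121 (H2-DMb1, plus strand, shown up to 30 bases) and chr17:34145121-34145168 (H2-DMb2, plus strand). The H2-Aa and H2-Eb1 stretches lie upstream of the gene. The H2-DMb1 stretch lies upstream of the RefSeq start but inside the first exon of the longer GENCODE model, and the H2-DMb2 stretch lies in the first intron of its longest GENCODE model. The order GNAAC, 15 to 45 bases, TGATTGG was searched on both strands. It was found in H2-Aa, H2-Eb1 and H2-DMb1, with spacers of 26, 25 and 26 bases and with the X core 81, 91 and 94 bases before the RefSeq start. The class II genes H2-Oa, H2-Ob and H2-Eb2, which are not members and whose values were too low to be tested, also had this order. Of all 32851 promoters in the table, 0.852% hold this order and 7.82% hold TGATTGG. H2-DMb2 has TGATTGG but not GNAAC at the same place, and 42 of 48 bases are the same as in H2-DMb1. Neither RefSeq start listed for H2-DMa had either pattern. The 2 cores were chosen with the sequences in view, and a match is a description of letters, not a shown binding site.

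**Figure D1:**
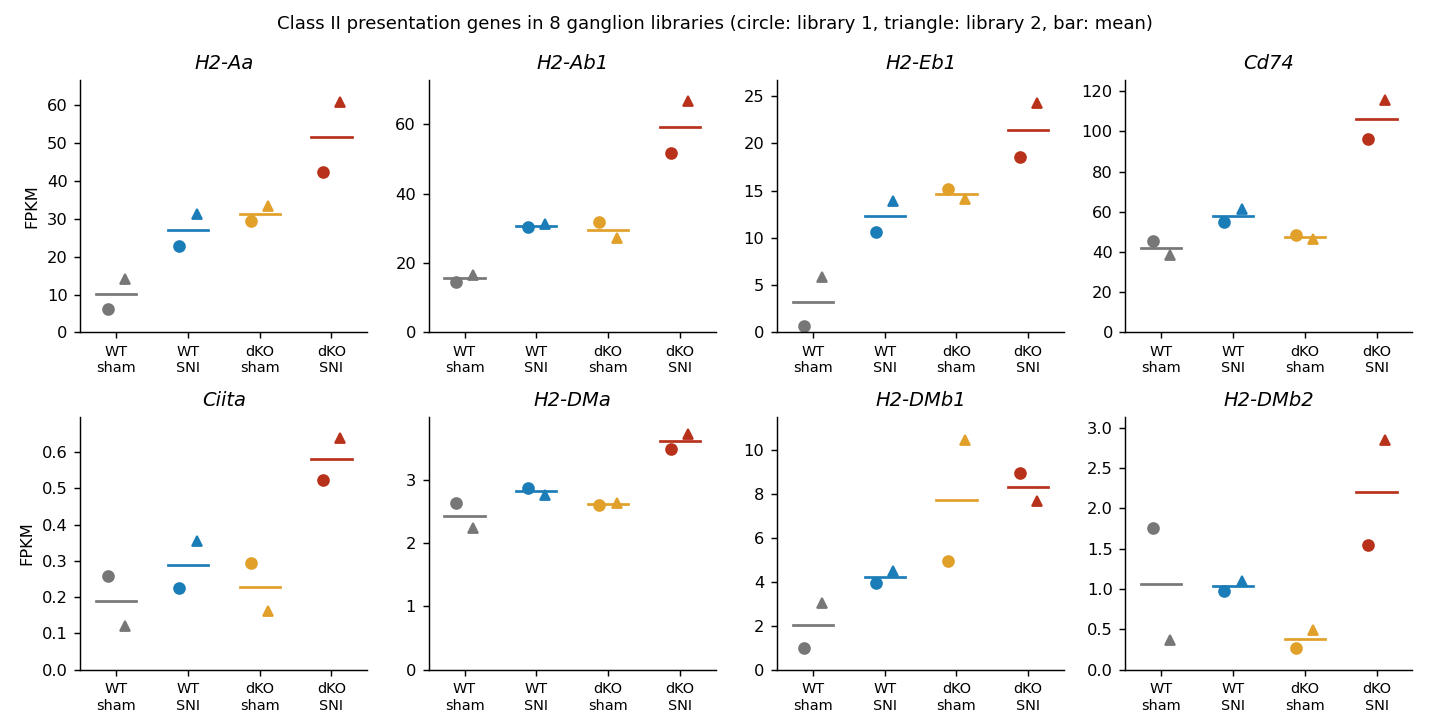
Expression as length- and depth-scaled fragment counts (FPKM, vertical axes, each from 0) of the 8 class II genes in the 4 groups (horizontal axes); circles are library 1, triangles library 2 and bars the group mean. For the class II chains WT sham is lowest and dKO SNI highest, and for Cd74, H2-DMa, Ciita and H2-DMb2 dKO SNI stands above the other injured group.

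Values are FPKM, fragment counts scaled to transcript length and library size, and differences between groups are differences of log2(FPKM + 1) with their standard error (SE) from limma. On that scale small values change less than on a plain log scale. The test covered 12881 genes, those reaching 1 FPKM in 2 or more libraries, and a gene was called at a Benjamini-Hochberg adjusted p under 0.05 over all of them. Of the 8 members 7 passed this filter and Ciita did not. Of those 7, 6 reached 1 FPKM in every group, and H2-DMb2 reached it in WT sham 1, WT SNI 2 and both dKO SNI libraries. These are bulk ganglia, so fewer cells of a type and less RNA per cell cannot be told apart.

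Libraries differed in ways the groups do not name. FPKM totals ran from 278310 to 339920 and no source used here gives read totals. The Y-linked genes Ddx3y, Eif2s3y, Kdm5d and Uty were present in WT sham and dKO SNI (2.10 to 17.8 FPKM) and nearly absent from WT SNI and dKO sham (0 to 0.0109 FPKM), so in each comparison of 2 groups, and in the difference between the 2 injury responses, the effect and this split cannot be told apart. WT sham 2 held skeletal muscle transcripts (445 FPKM summed over 5 markers, against 1.15 to 11.5 FPKM elsewhere). WT sham 1 stood apart in the class II region itself, as given with H2-Eb1. The class I gene H2-T23, chosen after its values were seen, also differed within the dKO groups. It measured, in FPKM, 6.94 and 15.9 (dKO sham) and 15.2 and 34.2 (dKO SNI). Whether the mice shared 1 MHC haplotype, and how reads of this variable region were assigned to genes, was not tested. This limit bears on the levels of all groups and on every difference between them, those with WT sham included. The targeted Myh9 measured, in FPKM, 27.2 and 31.6 (WT sham), 30.8 and 29.7 (WT SNI), 10.9 and 12.1 (dKO sham) and 24.6 and 24.4 (dKO SNI), so dKO SNI lay below the WT groups by much less than dKO sham did. Myh10 measured 18.1 and 23.5 (WT sham), 13.8 and 10.4 (WT SNI), 12.2 and 14.4 (dKO sham) and 5.31 and 4.12 (dKO SNI). Both genes are also expressed outside neurons. WT sham 1 and WT sham 2, each set apart above, make up that whole group. Differences that rest on WT sham are therefore also given without each where the value or the call moved. The averages of the 2 injury comparisons and of the 2 genotype comparisons are balanced for the Y-linked split, and they are given first.

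Axotomy, averaged over both genotypes, came with higher class II transcripts. Of the 7 tested members 6 were called higher and none lower, where 29.5% of all tested genes were called higher and 25.5% lower. The median difference of the 7 was 0.80, against 0.04 over all genes tested. The dKO mice, averaged over both surgeries, were also higher: 5 of the 7 were called higher and none lower, where 11.8% of all genes were called higher and 10.4% lower, and the medians were 0.89 and 0.0068. Every dKO SNI library lay above every WT SNI library for all 8 members. Groups fall apart this way in 30.8% of all tested genes.

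H2-Aa encodes the alpha chain of the I-A molecule. It measured, in FPKM, 6.24 and 14.2 (WT sham), 22.95 and 31.2 (WT SNI), 29.3 and 33.3 (dKO sham) and 42.3 and 60.9 (dKO SNI). WT sham was lowest and dKO SNI highest without overlap, while WT SNI and dKO sham overlapped. The average injury difference was 1.04 ± 0.22 (adjusted p 0.00351) and the average genotype difference 1.26 ± 0.22 (adjusted p 0.013). The injury call held under all 18 alternatives run, and the genotype call was lost only without dKO sham 2. Without WT sham 1 the 2 differences were 0.78 and 0.99, and without WT sham 2 they were 1.31 and 1.53.

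H2-Ab1 encodes the beta chain that pairs with H2-Aa. It measured, in FPKM, 14.7 and 16.7 (WT sham), 30.3 and 31.3 (WT SNI), 32.0 and 27.3 (dKO sham) and 51.7 and 66.8 (dKO SNI). WT sham was again lowest and dKO SNI highest without overlap, and WT SNI and dKO sham overlapped. The average injury difference was 0.95 ± 0.11 (adjusted p 1.30e-04) and the average genotype difference 0.89 ± 0.11 (adjusted p 0.00972). Both calls held under all 18 alternatives run. H2-Ab1 was the one member called in 5 comparisons: both averages, WT SNI against WT sham (0.93 ± 0.16), dKO SNI against dKO sham (0.97 ± 0.16) and dKO SNI against WT SNI (0.91 ± 0.16).

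H2-Eb1, whose protein was not measured, encodes the beta chain of the I-E molecule. Gm20513, a gene on the opposite strand, overlaps it in GENCODE M21, and with the strand setting unstated the reads of such a pair cannot be told apart. It measured, in FPKM, 0.626 and 5.84 (WT sham), 10.6 and 13.9 (WT SNI), 15.2 and 14.1 (dKO sham) and 18.6 and 24.3 (dKO SNI). No groups overlapped, but the 2 WT sham libraries were far apart. Their difference of -2.07 (library 1 minus library 2) was the 17th lowest of 12881 genes, and H2-Aa (-1.07) and H2-DMb1 (-1.01) were the 37th and 41st lowest. In the same direction lay the class I genes H2-T23 (0.453 against 3.93 FPKM) and H2-T22 (1.22 against 4.63 FPKM), chosen after their values were seen. H2-DMb2 went the other way (1.00), and H2-Ab1 (-0.18), Cd74 (0.24) and H2-DMa (0.16) hardly differed between these libraries. The ratio of H2-Eb1 to H2-Aa was 0.1 in WT sham 1 and 0.399 to 0.518 in the other 7 libraries.

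The average injury difference of H2-Eb1 was 1.24 ± 0.36 (adjusted p 0.0152) and its average genotype difference 1.49 ± 0.36 (adjusted p 0.0221). Without WT sham 1 they were 0.73 and 0.98, and without WT sham 2 they were 1.76 and 2.01, called each time. Both calls were lost with no filter on low values and with robust moderation. The injury call was also lost without dKO SNI 2, and the genotype call without WT SNI 1, either dKO sham library or dKO SNI 2.

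Cd74, on mouse chromosome 18, encodes the invariant chain and was the most abundant member. It measured, in FPKM, 45.3 and 38.3 (WT sham), 54.8 and 61.2 (WT SNI), 48.2 and 46.7 (dKO sham) and 96.2 and 115.8 (dKO SNI). Unlike for H2-Aa and H2-Ab1, dKO sham lay below WT SNI and close to WT sham. The average injury difference was 0.80 ± 0.11 (adjusted p 2.58e-04), held under all 18 alternatives run. The average genotype difference was 0.52 ± 0.11 (adjusted p 0.0158), and that call was lost without WT sham 2, WT SNI 1, dKO sham 2 or dKO SNI 2.

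The invariant chain and the chains it serves did not keep one ratio. Cd74 was 3.09 and 2.30 times H2-Ab1 in WT sham, 1.81 and 1.96 times in WT SNI, 1.51 and 1.71 times in dKO sham, and 1.86 and 1.73 times in dKO SNI. WT sham had the highest ratio in both libraries. Summed over the 8 members, expression was, in FPKM, 72.5 and 80.8 (WT sham), 126.7 and 146.3 (WT SNI), 132.9 and 135.2 (dKO sham) and 223.3 and 282.6 (dKO SNI).

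H2-DMa encodes the alpha chain of the peptide exchanger and varied in a narrow range. It measured, in FPKM, 2.63 and 2.24 (WT sham), 2.88 and 2.76 (WT SNI), 2.61 and 2.64 (dKO sham) and 3.49 and 3.73 (dKO SNI). Its average injury difference of 0.25 ± 0.09 passed narrowly (adjusted p 0.0377) and was lost when any 1 library was left out. The average genotype difference of 0.18 ± 0.09 did not pass (adjusted p 0.171).

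H2-DMb1 and H2-DMb2 encode 2 versions of the beta chain of the same exchanger, and their values differed in kind. H2-DMb1 measured, in FPKM, 1.01 and 3.04 (WT sham), 3.92 and 4.50 (WT SNI), 4.95 and 10.5 (dKO sham) and 8.93 and 7.65 (dKO SNI). It was higher in dKO on average (1.19 ± 0.24, adjusted p 0.0158), a call lost without WT SNI 1, without dKO sham 2 or with no filter on low values, while its average injury difference of 0.52 ± 0.24 did not pass (adjusted p 0.0976). That injury difference was 0.27, not called, without WT sham 1. It passed without WT sham 2 (0.77, adjusted p 0.0158), without dKO sham 2 (0.75, adjusted p 0.0247) and with a replicate block (adjusted p 0.0427). The genotype difference was 0.93 without WT sham 1 and 1.44 without WT sham 2, called both times. H2-DMb2 measured, in FPKM, 1.76 and 0.374 (WT sham), 0.973 and 1.10 (WT SNI), 0.265 and 0.497 (dKO sham) and 1.55 and 2.85 (dKO SNI). Its average injury difference was 0.63 ± 0.22 (adjusted p 0.0329), lost when any 1 library other than WT sham 1 or dKO SNI 1 was left out, and its average genotype difference was 0.06 ± 0.22 (adjusted p 0.853). Without WT sham 1 these were 0.88, called, and 0.31, and without WT sham 2 they were 0.38 and -0.19, neither called.

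The split between these 2 genes is uncertain, because they are near copies. Of the 50-base words in the GENCODE transcripts of H2-DMb1, 22.7% also occur in those of H2-DMb2, and 21.2% of the H2-DMb2 words occur in H2-DMb1. For the other members the share found in any other gene was at most 0.488%. Transcripts were compared in their own orientation only, so an overlap on the opposite strand, such as that of Gm20513 with H2-Eb1, was not counted. Their sum measured, in FPKM, 2.76 and 3.41 (WT sham), 4.90 and 5.6 (WT SNI), 5.22 and 10.96 (dKO sham) and 10.5 in each dKO SNI library. WT sham lay below the other 3 groups for the sum. In a fit added after the data were seen, the sum was higher after injury (0.51 ± 0.18, adjusted p 0.0348) and in dKO (0.98 ± 0.18, adjusted p 0.0132) on average.

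**Figure D2:**
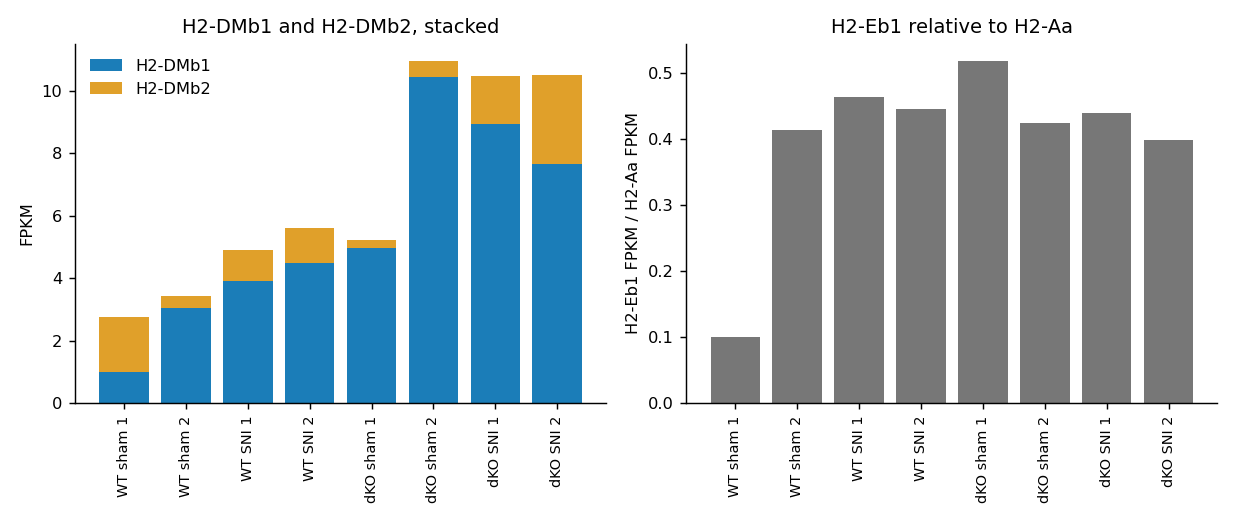
Left, FPKM of H2-DMb1 (blue) and H2-DMb2 (orange) stacked for each of the 8 libraries; right, the ratio of H2-Eb1 FPKM to H2-Aa FPKM in the same libraries. In WT sham 1 H2-DMb2 makes up 63.6% of the stack, against 4.53 to 27.2% elsewhere, and the ratio is 0.1 against 0.399 to 0.518 elsewhere.

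Ciita, which switches the other members on, was scarce. It measured, in FPKM, 0.257 and 0.122 (WT sham), 0.224 and 0.356 (WT SNI), 0.295 and 0.161 (dKO sham) and 0.523 and 0.638 (dKO SNI). The first 3 groups overlapped and dKO SNI lay above them. In a fit without the filter on low values, the average injury difference was 0.24 ± 0.06 (adjusted p 0.0247), the dKO SNI against dKO sham difference 0.36 ± 0.09 (adjusted p 0.0233), and the average genotype difference of 0.17 ± 0.06 did not pass (adjusted p 0.131). At such levels the added 1 FPKM dominates the log2 scale, and the counting error is unknown.

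Taken one genotype at a time, axotomy in WT mice gave 3 calls among the 7 tested members, where 13.6% of all genes were called higher. H2-Eb1 (1.98 ± 0.51, adjusted p 0.0221), H2-Aa (1.41 ± 0.31, adjusted p 0.0128) and H2-Ab1 (0.93 ± 0.16, adjusted p 0.00362) were higher. Cd74 missed narrowly (0.47 ± 0.15, adjusted p 0.0508), and H2-DMb1 (0.87 ± 0.34), H2-DMa (0.16 ± 0.13) and H2-DMb2 (0.06 ± 0.30) did not pass. The H2-DMb1 difference was 0.36, not called, without WT sham 1, and passed at 1.38 without WT sham 2 (adjusted p 0.0327) and with a replicate block (adjusted p 0.0444). Without WT sham 1 and without WT sham 2, in that order, Cd74 stood at 0.58 and 0.35, H2-DMa at 0.24 and 0.07 and H2-DMb2 at 0.57 and -0.44, none called. Cd74 also passed in some settings, among them the fit of the WT groups alone (adjusted p 0.0459). The H2-Eb1 difference was 0.94 without WT sham 1 and 3.02 without WT sham 2, called both times, and its call was lost with no filter on low values and with robust moderation. The H2-Aa difference was 0.87, no longer called, without WT sham 1 and 1.94, called, without WT sham 2. Without WT SNI 2 only H2-Ab1 kept its call. The 2 WT groups did not overlap for 6 of the 7, nor for 39.8% of all genes in this direction.

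In dKO mice axotomy gave 4 calls among the 7, where 23.8% of all genes were called higher: Cd74 (1.14 ± 0.15, adjusted p 3.93e-04), H2-Ab1 (0.97 ± 0.16, adjusted p 0.00109), H2-DMb2 (1.19 ± 0.30, adjusted p 0.0107) and H2-DMa (0.35 ± 0.13, adjusted p 0.046). H2-Aa (0.68 ± 0.31, adjusted p 0.0998), H2-Eb1 (0.51 ± 0.51, adjusted p 0.429) and H2-DMb1 (0.17 ± 0.34, adjusted p 0.712) did not pass. All groups share 1 estimate of the spread, and without either WT sham library, H2-Aa and H2-Eb1 passed, at the same differences. The H2-DMb2 call was lost without dKO sham 1 and without dKO SNI 2, and the H2-DMa call when any 1 library was left out. The 2 dKO groups did not overlap for 6 of the 7, nor for 37.6% of all genes in this direction.

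The difference between the 2 injury responses was tested directly as an interaction. None of the 7 members passed over all genes by limma. The values were -1.47 ± 0.71 for H2-Eb1 (adjusted p 0.367), -0.73 ± 0.44 for H2-Aa (adjusted p 0.453), 0.67 ± 0.21 for Cd74 (adjusted p 0.273) and 1.12 ± 0.43 for H2-DMb2 (adjusted p 0.301). Only 0.0543% of all genes passed this test. Without WT sham 2, H2-Eb1 alone passed, at -2.51 (adjusted p 0.0176), with H2-Aa at -1.26. Without WT sham 1, H2-Eb1 stood at -0.44 (adjusted p 0.677) and H2-Aa at -0.19. Cd74 stood at 0.55 without WT sham 1 and 0.79 without WT sham 2, and H2-DMb2 at 0.62 and 1.62, in that order. The interaction coincides with the Y-linked split.

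**Figure D3:**
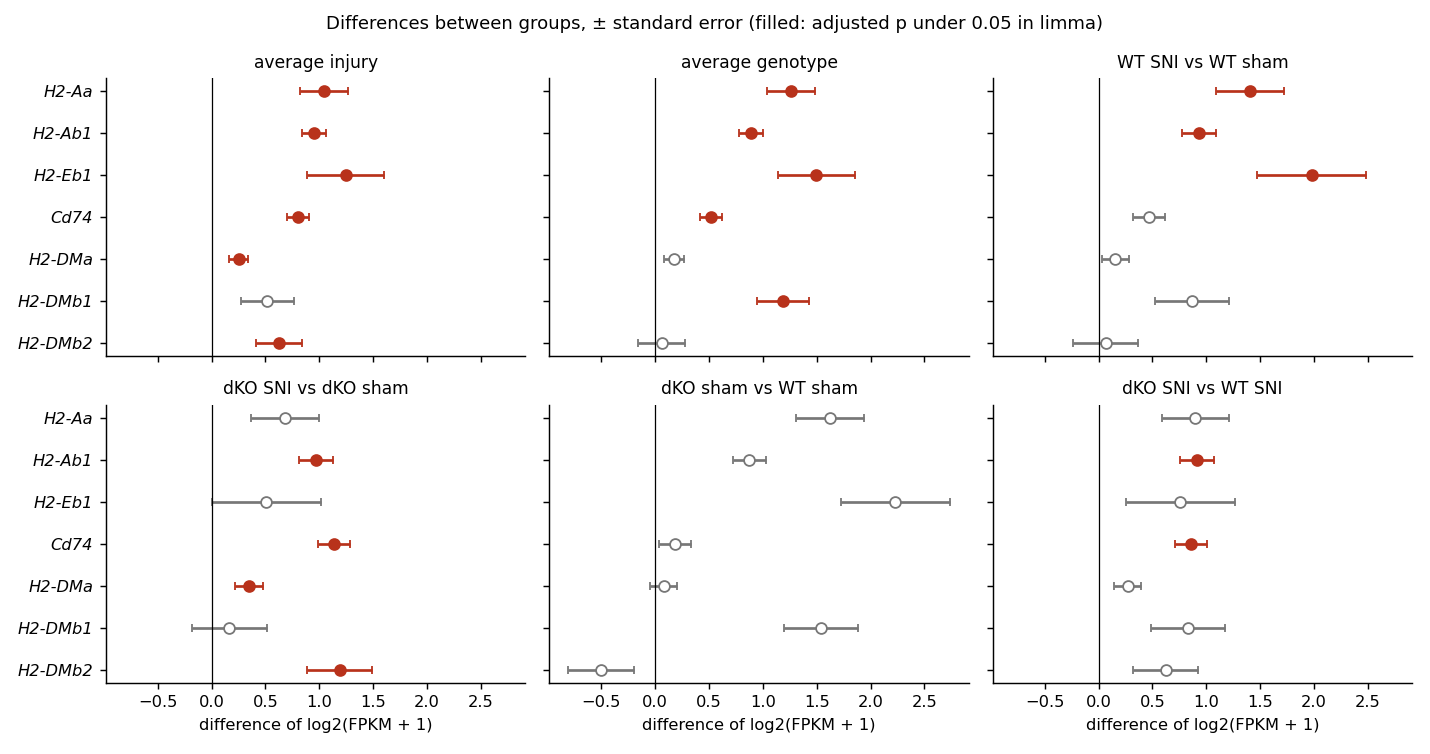
Differences of log2(FPKM + 1) (horizontal axes) with standard errors for the 7 tested members in 6 comparisons; filled red points have an adjusted p under 0.05 in limma. All 7 average injury differences lie above 0 with 6 filled, and in dKO sham against WT sham no point is filled although H2-Eb1 stands at 2.23.

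Without axotomy, no member passed the test between genotypes. In dKO sham against WT sham 5 of the 7 tested members lay above without overlap, as did 27.8% of all genes. None was called by limma, and few genes of any kind were called (0.155%, and 0.0932% higher). The largest differences were those of H2-Eb1 (2.23 ± 0.51, adjusted p 0.141), H2-Aa (1.62 ± 0.31, adjusted p 0.105) and H2-DMb1 (1.54 ± 0.34, adjusted p 0.137). H2-Ab1 (0.88 ± 0.16, adjusted p 0.0823) followed, and Cd74 (0.18 ± 0.15) and H2-DMa (0.08 ± 0.13) were near 0. H2-DMb2 alone lay lower in dKO sham (-0.50 ± 0.30, adjusted p 0.577), at 0.0019 without WT sham 1 and -1.002 without WT sham 2. Without WT sham 1 the first 4 stood at 1.19, 1.09, 1.03 and 0.79, and none was called. Without WT sham 2 they stood at 3.27, 2.16, 2.04 and 0.96, and H2-Eb1 and H2-Aa were called.

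After axotomy, 2 of the 7 members were called higher in dKO SNI than in WT SNI, where 10.7% of all genes were called higher: H2-Ab1 (0.91 ± 0.16, adjusted p 0.0111) and Cd74 (0.85 ± 0.15, adjusted p 0.0112). H2-Aa (0.90 ± 0.31, adjusted p 0.0631), H2-DMb1 (0.83 ± 0.34), H2-Eb1 (0.76 ± 0.51), H2-DMb2 (0.62 ± 0.30) and H2-DMa (0.27 ± 0.13) did not pass. H2-Aa and H2-Eb1 passed, at the same differences, when either WT sham library was left out of the shared spread. Both calls of H2-Ab1 and Cd74 were lost without WT SNI 1 and without dKO SNI 2, where 10 and 9 genes of the whole table were called in place of 3106. With 2 libraries a side, the smallest two-sided exact permutation p is 0.333, so none is given.

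Of 7 RFX, NF-Y and CREB genes, whose products hold Ciita on the promoter, 2 rose and 1 fell in the average injury comparison. Of all tested genes 29.5% rose and 25.5% fell. In dKO 1 was higher on average, as were 11.8% of all tested genes. With so few genes, these counts do not set the list apart. The NF-Y subunit Nfya rose with injury (0.67 ± 0.10) and was higher in dKO (0.36 ± 0.10). The RFX subunit Rfxap fell with injury (-0.36 ± 0.09). For Nfyb (0.30 ± 0.11) and Nfyc (0.02 ± 0.10) the injury difference did not pass.

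Of the 11 listed genes of interferon gamma signalling and Ciita control, 9 were tested, 5 rose and 1 fell with injury, and 3 were higher and 1 lower in dKO on average. Of all tested genes 29.5% rose and 25.5% fell with injury, and 11.8% were higher and 10.4% lower in dKO. The cytokine gene Ifng itself was listed at 0 in 6 of 8 libraries and at 0.0503 and 0.105 FPKM in WT SNI. The receptor chain Ifngr1 rose with injury (0.44 ± 0.09), while the receptor chain Ifngr2 did not pass (0.07 ± 0.09), and the kinase Jak1 fell (-0.58 ± 0.12). The myeloid transcription factors Spi1 (1.89 ± 0.13) and Irf8 (1.39 ± 0.14), named here outside the rule that takes the most abundant genes, rose with injury and were higher in dKO (0.86 ± 0.13 and 0.84 ± 0.14).

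Of 6 endosomal enzymes that prepare peptides or trim the invariant chain, 2 rose and 1 fell with injury (29.5% and 25.5% of all genes). The most abundant were Ctsd (0.18 ± 0.13), Ctsb (-0.08 ± 0.12) and Ctsl (0.10 ± 0.13), which did not pass, and the legumain gene Lgmn, which fell (-0.56 ± 0.10). The 2 that rose were Ctss, the cathepsin known for the last cut of the invariant chain in myeloid cells (2.71 ± 0.14), and Ifi30, a thiol reductase of the same compartment (1.63 ± 0.14). Ctss measured, in FPKM, 5.67 and 3.94 (WT sham), 31.4 and 36.6 (WT SNI), 8.59 and 9.84 (dKO sham) and 58.9 and 85.3 (dKO SNI). In dKO sham it lay below WT SNI, as for Cd74.

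Of 7 costimulatory and checkpoint ligands, 4 were tested and 3 rose with injury, where 29.5% of all genes did: Cd83 (0.46 ± 0.15), Icosl (0.37 ± 0.10) and Cd86 (1.00 ± 0.16). The checkpoint ligand Cd274 did not pass (-0.01 ± 0.13). Cd86 reached 1 FPKM only in libraries after axotomy, so the filter itself favoured its rise. The other class II genes were near the floor of the table: H2-Oa and H2-Ob, the chains of the H2-DM inhibitor, measured at most 1.07 and 0.679 FPKM, H2-Eb2 at most 0.0616 FPKM and H2-Ea-ps at most 0.832 FPKM. None of these 4 was tested.

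**Figure D4:**
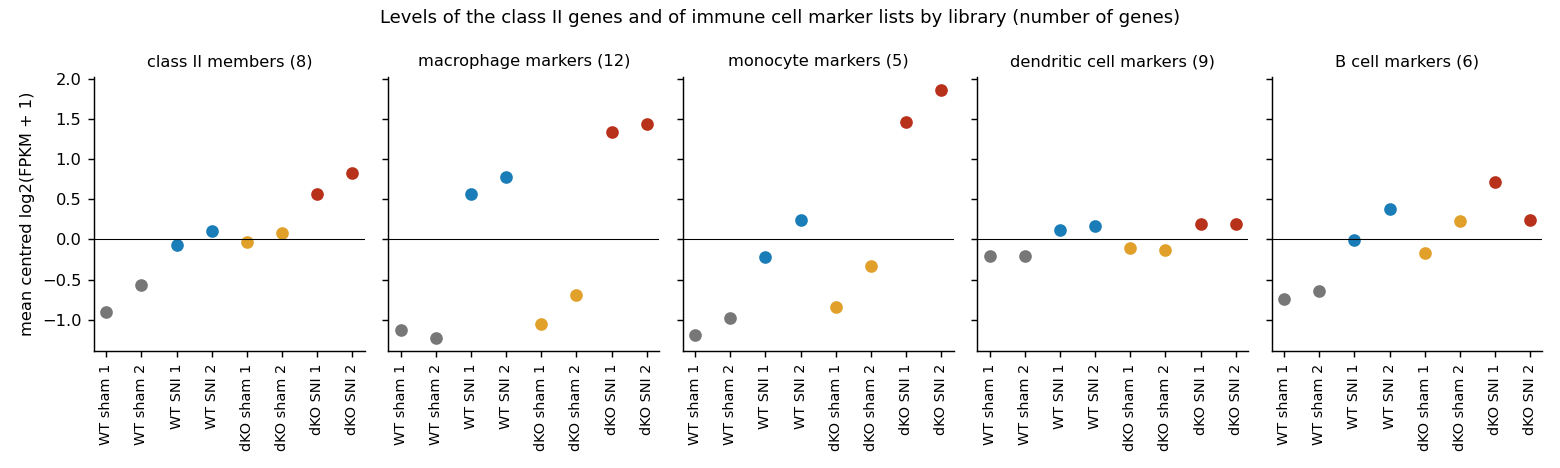
Mean of centred log2(FPKM + 1) (vertical axis) over the 8 class II genes and over 4 lists of immune cell markers in each of the 8 libraries; numbers in brackets count the genes. In dKO sham the class II mean sits at -0.03 and 0.08, level with WT SNI. Of the members, Cd74, H2-DMa and H2-DMb2 lie below WT SNI there, H2-Eb1 and H2-DMb1 lie above, and the others overlap. The macrophage markers sit at -1.05 and -0.69 in dKO sham, near WT sham, and the monocyte markers at -0.84 and -0.34. The dendritic cell markers sit at -0.11 and -0.13 and the B cell markers at -0.17 and 0.23.

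Markers of the cells that can carry class II moved in some of these comparisons, and their part in the class II values was not tested. For every marker list below, the shares over all tested genes were 29.5% higher and 25.5% lower with injury, and 11.8% higher in dKO on average. All 12 macrophage markers rose with injury on average, at a median of 2.17, and 8 of 12 were higher in dKO, at a median of 0.46. Their summed level was, in FPKM, 54.0 to 54.5 (WT sham), 247.7 to 293.8 (WT SNI), 59.7 to 102.2 (dKO sham) and 541.2 to 573.0 (dKO SNI). The most abundant, Tyrobp (2.45 ± 0.19), Fcer1g (2.62 ± 0.19), Cd68 (2.57 ± 0.13) and Csf1r (2.15 ± 0.11), all had larger injury differences than any class II gene. Among the 12, Cd163 reached 1 FPKM only in libraries after axotomy, so the filter itself favoured its rise. All 5 monocyte markers rose with injury (median 1.57), and all 5 were higher in dKO on average (median 0.95). Their sum ran from 25.8 FPKM in WT sham 1 to 326.6 FPKM in dKO SNI 2.

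Of 6 B cell markers 3 were tested, 3 rose with injury and 2 were higher in dKO on average, at medians of 0.98 and 0.84. Their summed level was, in FPKM, 0.639 and 1.19 (WT sham), 5.94 and 10.3 (WT SNI), 4.59 and 9.10 (dKO sham) and 16.2 and 8.83 (dKO SNI). WT sham was below the other 3 groups, which overlapped. Cd79a, part of the B cell receptor, measured 0.48 and 0.567 FPKM in WT sham and 2.34 and 3.08 FPKM in dKO sham, and Ms4a1 was listed at 0 in WT sham 1. In dKO sham against WT sham the 3 tested B cell genes had a median of 1.28 and the 7 class II genes 0.88. The 12 macrophage markers had a median of 0.36 and the 5 monocyte markers 0.60, and none of these lists had a call. All 3 tested B cell genes stayed below 1 FPKM in both WT sham libraries, so the filter itself favoured higher values in the other groups. Some macrophage and monocyte markers stayed below 1 FPKM there too.

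Of 9 dendritic cell markers 4 were tested. Of these 3 rose with injury, including the transcription factor Zbtb46 (0.77 ± 0.11), while Flt3 did not pass (-0.26 ± 0.11), and none was higher in dKO on average. Their summed level was, in FPKM, 5.69 to 5.72 (WT sham), 9.44 to 9.98 (WT SNI), 6.04 to 6.12 (dKO sham) and 9.62 to 10.0 (dKO SNI), with Cd209a listed at 0 in dKO sham 2. Of the tested markers that rose, Batf3 and Cd209a reached 1 FPKM only in libraries after axotomy, so the filter itself favoured a rise. The 7 T cell markers found in the table were low, 0.892 to 3.36 FPKM in sum, and Cd3d was listed at 0 in 3 libraries.

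Of the other marker lists, all 6 neutrophil markers rose with injury (median 2.16) and 5 of 6 sensory neuron markers fell (median -1.11). The summed neuronal level was 3138 and 3336 FPKM in WT sham and 1894 and 1314 FPKM in dKO SNI. FPKM are shares of a library, and the part of this fall in the class II values was not tested. Of 6 satellite glia and Schwann cell markers 3 rose and 1 fell with injury, and of 5 endothelial markers 2 rose. Of all tested genes 29.5% rose and 25.5% fell. In dKO on average all 6 neutrophil markers were higher (median 1.14) and 4 of the 6 sensory neuron markers were lower (median -0.47). Of the satellite glia and Schwann cell markers 1 was higher, and of the endothelial markers 2 were. Of all tested genes 11.8% were higher and 10.4% lower in dKO.

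Across the 8 libraries the members did not all follow one course. With the mean centred log2(FPKM + 1) of the 7 tested members, H2-Ab1 and H2-Aa correlated at a Pearson r of 0.977 each, H2-Eb1 at 0.915, H2-DMb1 at 0.864, Cd74 at 0.857, H2-DMa at 0.823 and H2-DMb2 at 0.379, each being part of that mean. Cd74 went most closely with H2-DMa (r = 0.979), and H2-Aa with H2-Eb1 (r = 0.974). The genes outside the list most like that mean were Rnpepl1 (r = 0.993), Hmgn5 (0.985), Jak3 (0.985), Rhbdf1 (0.980), Nradd (0.979) and P3h3 (0.979). Jak3 measured, in FPKM, 1.36 and 1.63 (WT sham), 2.41 and 3.10 (WT SNI), 2.60 and 2.56 (dKO sham) and 4.07 and 4.84 (dKO SNI). These correlations describe 8 libraries that share their groups and library scaling, and they carry no test.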

How the data were processed

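RNA-seq libraries were paired-end TruSeq libraries of total RNA, per the labels' protocols. Submitters' processing notes list HISAT2 2.0.4, StringTie 1.3.0, edgeR and GRCm38.p4 (mm10), without saying how each was used. The authors deposited FPKM values per gene; no source used here states the annotation, strand setting or handling of shared reads. Columns were matched to samples by the description label. Symbols listed more than once (2) were left out. Read depth is unknown, so neither a count model nor counting intervals are given.

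The log2(FPKM + 1) values of all 8 libraries were fitted with limma 3.58.1 (R 4.3.3) as 4 group means, leaving 4 residual degrees of freedom, with a mean trend in empirical Bayes, two-sided tests and Benjamini-Hochberg adjustment. The procedure was tested on simulated data. The members and all gene lists were chosen with earlier results of these data known. The text names all members, up to 4 genes of highest mean FPKM per list, and the 6 genes most like the members' mean; any other gene was chosen after its values were seen. Alternatives varied the pseudocount (0.1, 0.5), the low-value filter, scaling, moderation, a replicate block, each library left out, and fits of only the compared groups. Values of some listed genes are not reported here.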

Additional observations from a re-analysis of the deposited data

How the results depend on the processing

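Leaving out 1 library at a time, with a lone library assumed to vary like the other groups, gave 1 to 4 called members in WT SNI against WT sham (3 with all libraries), 2 to 5 in dKO SNI against dKO sham (4), 0 to 2 in dKO sham against WT sham (0), 0 to 4 in dKO SNI against WT SNI (2), 0 to 1 in the interaction (0), 3 to 5 in the average injury comparison (6) and 1 to 5 in the average genotype comparison (5). The average genotype count was 3 with no filter on low values. The dKO injury count was 2 with a mean of at least 5 FPKM, where fewer members are tested. The dKO SNI against WT SNI count was 5 when only those groups were fitted, and the cause was not tested.

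Signs that turned belonged to differences that had not passed. For H2-DMb2 the average genotype difference was -0.024 with pseudocount 0.1, -0.033 after quantile normalization, and -0.19 to 0.31 with a library left out. The WT injury difference of H2-DMb2 was -0.17 after quantile normalization and -0.44 to 0.57 with a library left out, and its sham genotype difference ran from -1.002 to 0.0019. The others that turned with a library left out were H2-DMa between sham groups (-0.0016 to 0.16), the H2-Ab1 interaction (-0.14 to 0.22) and H2-DMb1 in dKO injury (-0.31 to 0.64).

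With a replicate block the dKO sham against WT sham count was 1 (H2-Aa). Same-numbered libraries share only a number: the correlation of the differences between numbers ran from -0.188 to 0.254 over 6 pairs of groups. Over all alternatives, the number of all genes called ran from 1099 to 3254 for WT injury (2966 with the settings reported), 3711 to 6270 for dKO injury (6235), 6 to 55 between sham groups (20), 9 to 3247 between injured groups (3106), 3 to 20 for the interaction (7), 4336 to 7439 for average injury (7090) and 416 to 3054 for average genotype (2865). Of the WT injury calls 59.2% were higher, against 49.8% after median centring and 45.9% after quantile normalization.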

Other observations

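H2-Ea-ps, of the I-E alpha chain, is listed in GENCODE M21 as a polymorphic pseudogene. It measured, in FPKM, 0.259 and 0 (WT sham), 0.128 and 0.0662 (WT SNI), 0 and 0 (dKO sham) and 0.74 and 0.832 (dKO SNI). The share of H2-DMb2 in the sum with H2-DMb1 was 63.6% and 10.96% (WT sham), 19.9% and 19.7% (WT SNI), 5.07% and 4.53% (dKO sham) and 14.8% and 27.2% (dKO SNI). The libraries with H2-Ea-ps at 0 were the 3 with the lowest share.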
